A study of Mus musculus with 11 samples.

Results

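The genes of polyamine synthesis and breakdown were described in splenic T-cells of a mouse model of T-cell prolymphocytic leukemia. The 6 members were named by symbol: Odc1, Srm, Sms, Azin1, Sat1 and Smox. A member was taken from the row of the array table that carried its symbol and no other, and from the row with the highest mean where a gene had several, which gave 5 of the 6 members among 19937 genes. Both rows that carry Sms also carry a second gene, so Sms was not analysed here. Odc1 entered the set because its value was lower in leukemia, so its differences from wild type are given below as a description, without a test.

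Of the 11 arrays, 5 measured leukemia in its exponential phase, 3 measured it in its chronic phase, and 3 measured wild-type mice. Both leukemia phases came from Lckpr-TCL1A+/- mice, which carry human TCL1A on 1 allele under the proximal Lck promoter, a promoter active in thymocytes and T-cells. The exponential phase (average age 15 months) was defined by a mean blood lymphocyte doubling time of 12 days (SEM 0.8), over 80% tumor cells in blood and over 90% in spleen. The chronic phase (average age 12 months) was defined by 30 to 70% tumor cells in blood and spleen. The wild-type arrays came from age-matched C57BL/6 mice, 9 animals in pools of 3. The leukemia arrays held splenic T-cells enriched for CD8 and the wild-type arrays held pan-T-cells selected for CD3, so genotype and cell selection changed together and their parts in a difference cannot be told apart. The labels do not say if each leukemia array was a single animal, and the p-values below rest on the variation among arrays, which may be technical. Values are RMA values on a log2 scale, where a difference of 1 is a 2-fold change.

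Polyamines are small positively charged molecules made from ornithine, which bind nucleic acids and are needed by dividing cells. Ornithine decarboxylase makes putrescine, and spermidine synthase and spermine synthase each add an aminopropyl group to give spermidine and spermine. Antizymes bind ornithine decarboxylase and send it to the proteasome, antizyme inhibitors take antizymes away from it, and acetylation by Sat1 or oxidation by Smox leads polyamines back down the pathway or out of the cell. Activated T-cells raise polyamine synthesis as they begin to divide, and Odc1 is a well known target of the transcription factor Myc.

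Correlation between arrays lay between 0.929 and 0.969 over all rows. The summed linear level of 2 CD8 markers (Cd8a and Cd8b1) was 27.9 in exponential replicate 4 and at least 219 in every other array, so this array went against its label, and differences of the members are also given without it. The 10 myeloid markers summed to 140 to 859 in the exponential arrays, with the highest sum in replicate 4, to 62.1 to 77.7 in the chronic arrays and to 76.7 to 88.7 in the wild-type arrays. The 6 measured of 7 pan T-cell markers summed to 1275 to 1552 in the exponential arrays, 884 to 1485 in the chronic arrays and 1599 to 2103 in the wild-type arrays. The 8 markers of CD4 helper and regulatory T-cells summed to 53.2 to 238 in the exponential arrays, 58.7 to 134 in the chronic arrays and 1098 to 1617 in the wild-type arrays. The 7 measured of 10 erythroid markers summed to 33.9 to 114 in the exponential arrays, 31.3 to 836 in the chronic arrays and 425 to 1034 in the wild-type arrays, and 4 plasma cell markers to 85.8 to 292, 99.9 to 1201 and 603 to 2298 in the same order of groups. Such linear sums mostly follow their brightest genes. In wild-type arrays Car1 averaged 9.05 on the log2 scale, against 5.51 for Car2, the next highest erythroid marker. Slc4a1 averaged 2.96 in exponential and 2.94 in wild-type arrays, and the other erythroid markers averaged lower in the former. Jchain averaged 10.24 in wild-type arrays, against 3.42 for Mzb1, the next highest plasma cell marker. The myeloid rise was largest in Lyz2, S100a8 and S100a9. None of the summed markers was listed at 0, and their part in the results below was not tested.

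Odc1, which encodes the first and rate-limiting enzyme of the pathway, was lower in both phases than in wild type. Its log2 value was 9.46, 7.51, 9.17, 6.99 and 9.54 in the 5 exponential arrays, 8.45, 8.12 and 8.18 in the 3 chronic arrays, and 10.05, 10.09 and 9.91 in the 3 wild-type arrays. All 8 leukemia arrays lay below all 3 wild-type arrays, in a gene chosen for its fall. The ranges of leukemia and wild-type arrays did not overlap for 3.31 percent of all genes. The exponential arrays fell apart into replicates 1, 3 and 5, which came within 1 log2 unit of the wild-type arrays, and replicates 2 and 4, which lay below every chronic array.

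Odc1 averaged 8.53 ± 1.19 over the exponential arrays, 8.25 ± 0.18 over the chronic arrays and 10.02 ± 0.10 over the wild-type arrays (SD, n = 5, 3 and 3). The difference was -1.48 (SE 0.57) between exponential and wild-type arrays, a 2.79-fold lower level, and -1.10 without exponential replicate 4. It was -1.77 (SE 0.13) between chronic and wild-type arrays, 3.40-fold lower. In these bulk samples fewer cells of a type and less RNA per cell cannot be told apart. The summed levels of the CD4 helper and regulatory markers and of the pan T-cell markers were, like Odc1, lower in all 8 leukemia arrays than in wild type. Of the pan T-cell markers, Cd247 and Cd3d averaged 5.95 and 7.48 in exponential arrays, above their wild-type means of 5.56 and 7.31. The other measured pan T-cell markers averaged lower in exponential arrays, and all measured ones averaged lower in chronic arrays. In wild-type arrays the CD4 helper and regulatory sum was mostly Ctla4, at 9.62 to 10.37, against 7.54 to 7.69 for Ikzf2, the next highest. Ctla4 is also named below among the genes most like Odc1, so this sum is not a separate observation. Of the single markers, Ikzf2, Foxp3, Il2ra, Tnfrsf4 and Cd40lg also had every leukemia array below every wild-type array. Their highest leukemia values were 6.88, 2.76, 2.79, 2.71 and 3.54, against lowest wild-type values of 7.54, 3.07, 3.84, 3.62 and 3.94. Cd4 and Zbtb7b overlapped. Cd4 read 5.18 in exponential replicate 4, against 4.21 to 4.62 in the wild-type arrays. Zbtb7b reached 2.47 in leukemia, against at least 2.44 in wild type. Ranges did not overlap for 3.31 percent of all genes. The part of these cells in Odc1 was not tested. The spread of Odc1 over the exponential arrays was large, as the median SD of all genes in that group was 0.17 and 0.712% of genes had a larger one. Exponential and chronic arrays overlapped, with a difference of 0.28 (SE 0.58) and an adjusted p of 0.958 by limma with Benjamini-Hochberg adjustment over all genes, or 0.67 without exponential replicate 4 (adjusted p = 0.804).

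A second row of the array carries Odc1 alone and gave the same order of groups. It read 9.16, 7.10, 8.66, 6.72 and 8.90 in the exponential arrays, 8.26, 7.59 and 8.01 in the chronic arrays, and 9.69, 9.64 and 9.37 in the wild-type arrays. Again replicates 2 and 4 of the exponential phase were the lowest arrays and no leukemia array reached wild type. This row names the same gene, chosen for its fall in these same arrays, so the agreement adds no support.

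**Figure D1:**
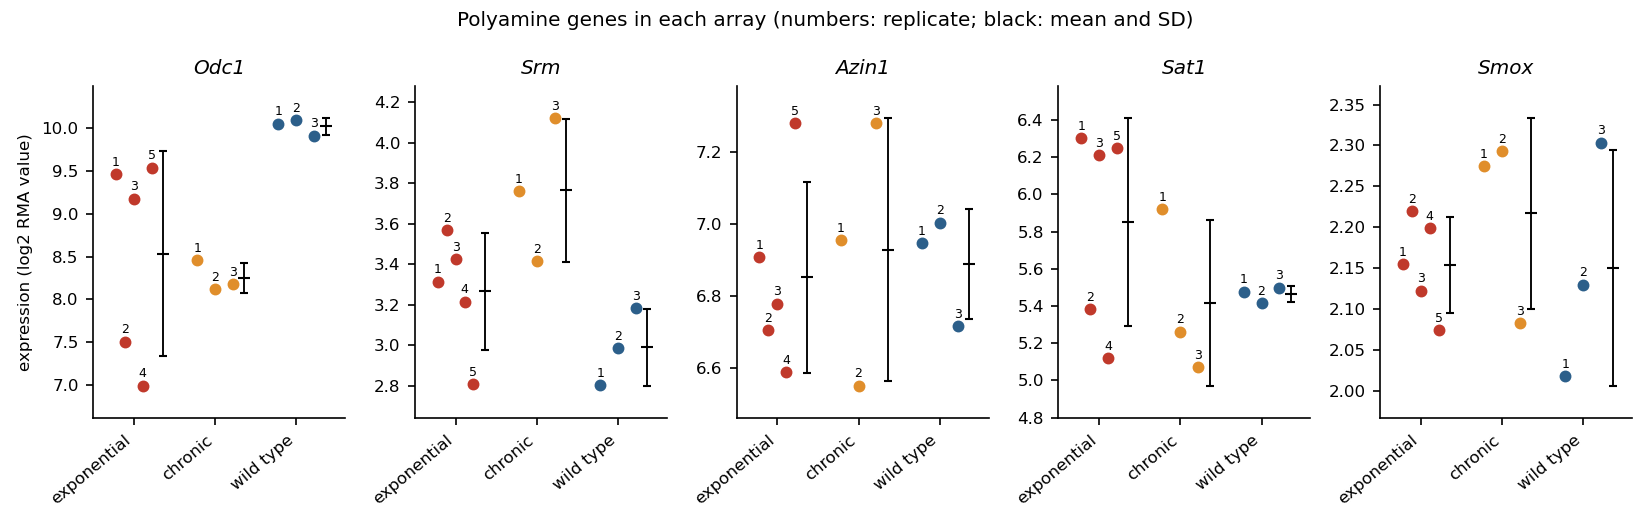
Log2 RMA value (vertical axis, its own range in each panel) of the 5 measured polyamine genes in exponential, chronic and wild-type arrays. Points are arrays with their replicate number, and black marks are the group mean with SD. Odc1 is the only member of the 5 with all 8 leukemia arrays on 1 side of the wild-type arrays. It was chosen for its fall in leukemia, and the ranges of leukemia and wild-type arrays did not overlap for 3.31 percent of all genes.

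Srm encodes spermidine synthase. It read 3.31, 3.57, 3.43, 3.22 and 2.81 in the exponential arrays, 3.76, 3.42 and 4.12 in the chronic arrays, and 2.80, 2.99 and 3.18 in the wild-type arrays. The chronic arrays lay above all wild-type arrays, and the exponential arrays overlapped both other groups. The means were 3.27 ± 0.29 (SD, n = 5), 3.77 ± 0.35 (SD, n = 3) and 2.99 ± 0.19 (SD, n = 3) in exponential, chronic and wild-type arrays.

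The chronic level of Srm was 0.78 log2 units above wild type (SE 0.20), which did not pass the test over all genes (adjusted p = 0.180 by limma). Ranges that do not overlap were found between chronic and wild-type arrays for 15.8 percent of all 19937 genes, and for Srm alone among the 4 members not chosen by value. The exponential level was 0.28 above wild type (SE 0.17, adjusted p = 0.686) and 0.50 below chronic (log2 difference -0.50, SE 0.20, adjusted p = 0.790). In order of level, chronic came first, then exponential, then wild type, and neither neighbouring pair differed beyond the test. Over all 8 leukemia arrays the difference from wild type was 0.46 (SE 0.21, adjusted p = 0.473). Leaving out exponential replicate 4 gave 0.29 for the difference between exponential and wild-type arrays.

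Azin1 encodes antizyme inhibitor 1, which protects ornithine decarboxylase from antizymes. It read 6.91, 6.70, 6.78, 6.59 and 7.28 in the exponential arrays, 6.95, 6.55 and 7.28 in the chronic arrays, and 6.95, 7.00 and 6.72 in the wild-type arrays. The 3 groups covered the same range. The difference from wild type was -0.04 in the exponential phase (95% interval -0.39 to 0.31, adjusted p = 0.973 by limma) and 0.04 in the chronic phase (95% interval -0.41 to 0.49, adjusted p = 0.976). The SD was 0.27 in exponential, 0.36 in chronic and 0.15 in wild-type arrays, and without exponential replicate 4 the exponential difference was 0.03.

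Sat1 encodes spermidine/spermine acetyltransferase, the enzyme that starts polyamine breakdown. It read 6.30, 5.38, 6.21, 5.12 and 6.25 in the exponential arrays, 5.92, 5.26 and 5.07 in the chronic arrays, and 5.48, 5.41 and 5.50 in the wild-type arrays. Exponential replicates 1, 3 and 5 and chronic replicate 1 stood above every wild-type array, and the other 4 leukemia arrays stood below every one. The wild-type arrays lay within an SD of 0.04, against 0.56 in the exponential arrays and 0.45 in the chronic arrays.

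The mean difference of Sat1 from wild type was 0.39 in the exponential phase (SE 0.28, adjusted p = 0.741 by limma), and 0.57 without exponential replicate 4 (adjusted p = 0.306). It was -0.05 in the chronic phase (SE 0.21, adjusted p = 0.975), and exponential arrays were 0.44 above chronic arrays (SE 0.32, adjusted p = 0.862). Over all 8 leukemia arrays Sat1 differed from wild type by 0.23 (95% interval -0.38 to 0.83, adjusted p = 0.863), so no Sat1 difference passed the test.

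Sat1 followed Odc1 within the exponential phase, a likeness that was looked for after the values had been seen. In both genes replicates 1, 3 and 5 were the 3 highest exponential arrays, replicate 2 came next and replicate 4 was the lowest. Replicate 5 was the highest in Odc1 and replicate 1 in Sat1. Azin1 had the same order of exponential arrays as Odc1, over a narrower range (6.59 to 7.28). Chronic replicate 1 was the highest chronic array in Odc1 and Sat1, and chronic replicate 3 in Azin1. The deviations of Odc1 and Sat1 from their group means had a Pearson r of 0.906 over the 11 arrays, against 0.456 for the values themselves, in which wild-type arrays combined the highest Odc1 with middling Sat1. The points are whole arrays that share their cell makeup across genes, and the correlation is given as a description with no test.

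The summed level of 5 measured B-cell markers of 6 ran with Sat1 in part. It was 313, 55.8, 249, 95.3 and 154 in the exponential arrays, 151, 35.0 and 87.1 in the chronic arrays, and 37.7, 70.1 and 157 in the wild-type arrays. The exponential arrays high in Sat1 were those high in B-cell markers, while wild-type replicate 3 had a B-cell sum of 157 with a Sat1 value of 5.50. The part of these cells in the Sat1 values was not tested.

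**Figure D2:**
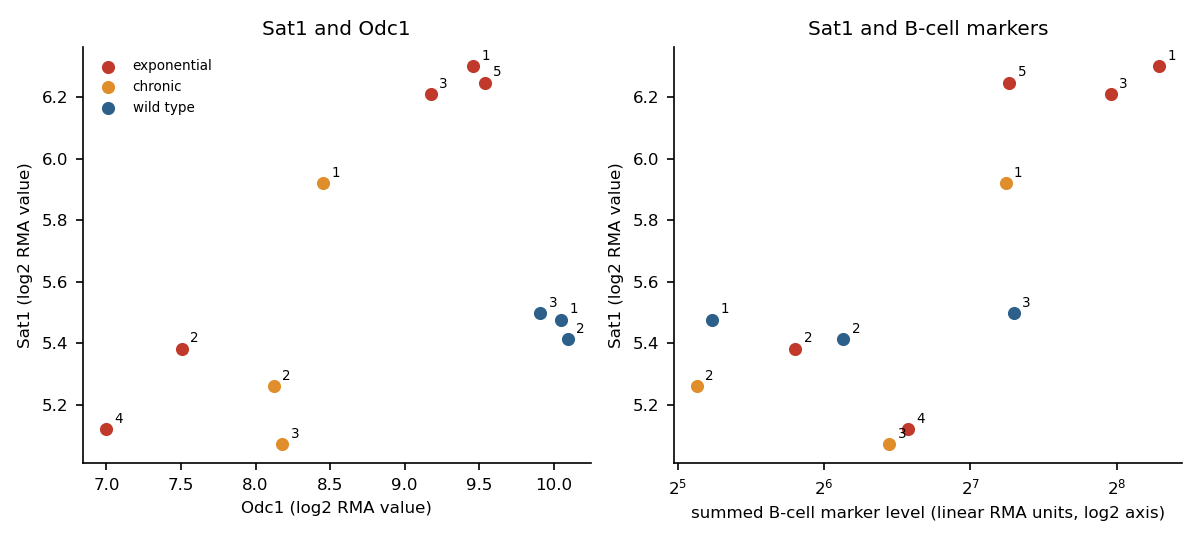
Sat1 (vertical axis, log2 RMA value) against Odc1 (left panel, log2 RMA value) and against the summed B-cell marker level (right panel, linear RMA units on a log2 axis), by array with replicate numbers. Exponential replicates 1, 3 and 5 are high in Sat1, in Odc1 and in B-cell markers, and the 3 wild-type arrays keep Sat1 between 5.41 and 5.50.

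The start regions of Odc1 and Sat1 are shown because exponential replicates 1, 3 and 5 stood above replicates 2 and 4 in both members. Each window runs from 250 bases before to 50 bases after the gene's start in the RefSeq annotation of build GRCm38.p6, and 3 of the 5 measured members (Odc1, Sat1 and Smox) matched an entry by symbol. Odc1 lies at chr12:17544623-17544922 on the plus strand and Sat1 at chrX:155216400-155216699 on the minus strand, both written 5′ to 3′ along the gene. Capitals mark the GC box GGGCGG on either strand, the binding motif of Sp1.
Odc1: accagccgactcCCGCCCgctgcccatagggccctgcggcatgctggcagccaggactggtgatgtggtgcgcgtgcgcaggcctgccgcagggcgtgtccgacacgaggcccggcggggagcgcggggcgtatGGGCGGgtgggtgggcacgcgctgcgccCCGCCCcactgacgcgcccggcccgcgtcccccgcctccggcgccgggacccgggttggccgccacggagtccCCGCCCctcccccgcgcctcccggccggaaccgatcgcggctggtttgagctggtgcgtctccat
Sat1: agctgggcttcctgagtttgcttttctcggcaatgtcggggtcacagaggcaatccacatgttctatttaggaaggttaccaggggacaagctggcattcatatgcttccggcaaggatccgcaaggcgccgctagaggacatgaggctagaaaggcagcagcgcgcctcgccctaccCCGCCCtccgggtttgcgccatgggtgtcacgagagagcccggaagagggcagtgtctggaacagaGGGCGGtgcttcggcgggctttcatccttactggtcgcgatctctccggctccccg

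The Odc1 window held 4 GC boxes and had a GC content of 78.0%, and the Sat1 window held 2 with a GC content of 60.3%. The Smox window, not printed here, held 6 with a GC content of 71.0%. Smox did not share the order of exponential arrays seen in Odc1. Of 32851 windows of this length in the table, 35.7% held at least 1 GC box. The E-box CACGTG, the core motif bound by Myc and its partner Max, was absent from the Odc1, Sat1 and Smox windows. It was in 7.15% of all windows. CCAAT and TATAAA were also absent from the Odc1, Sat1 and Smox windows, and were in 37.4% and 13.6% of all windows. Both strands were searched, and no match overlapped another. These letters describe the windows alone, and no binding was measured.

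Smox encodes spermine oxidase, which turns spermine back into spermidine. It read 2.16, 2.22, 2.12, 2.20 and 2.07 in the exponential arrays, 2.27, 2.29 and 2.08 in the chronic arrays, and 2.02, 2.13 and 2.30 in the wild-type arrays. The groups overlapped. Its difference from wild type was 0.00 in the exponential phase (adjusted p = 0.994 by limma, and -0.01 without exponential replicate 4) and 0.07 in the chronic phase (adjusted p = 0.920), and over the 8 leukemia arrays it was 0.03 (95% interval -0.16 to 0.21). The table gives no detection call, so whether Smox stood above background was not established.

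Of the 4 members not chosen by value, 0 were called in any of the 4 comparisons, where a call needed both a fold of 1.5 or more and an adjusted p under 0.05. The call rate over all genes was 0.416 percent between exponential and wild-type arrays, 0.456 percent between chronic and wild-type arrays, 0 percent between exponential and chronic arrays, and 0.722 percent between all 8 leukemia arrays and wild type. At such rates a count of 0 among 4 genes does not set them apart from other genes. Without exponential replicate 4 the count stayed at 0 of 4. The differences between leukemia and wild-type arrays were then 0.50 for Srm, 0.03 for Azin1, 0.31 for Sat1 and 0.02 for Smox, and those between exponential and chronic arrays were -0.49 for Srm, -0.01 for Azin1, 0.62 for Sat1 and -0.07 for Smox. Between the 2 phases, 1246 genes had an unadjusted p under 0.05 by limma, none of which passed adjustment. Without adjustment, Srm had a p of 0.00468 between chronic and wild-type arrays by limma, and with adjustment 0.180. In that comparison 2225 of all 19937 genes had an unadjusted p under 0.05.

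**Figure D3:**
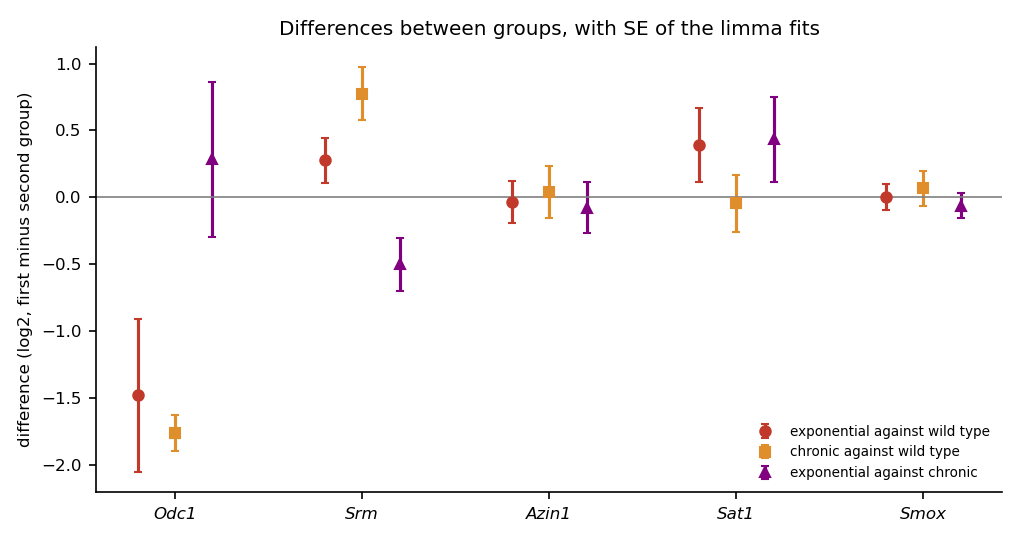
Log2 difference between group means (vertical axis, first minus second group) of the 5 measured members, with the SE of the limma fit. The differences of Odc1 from wild type, -1.48 and -1.77, are a description because the gene was chosen for them, and 0 of the other 4 members were called.

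The wider pathway was read from a list of 39 genes grouped by role, of which 31 were measured. Between all leukemia and wild-type arrays 1 of the 31 was called higher, Mtap, and 0 were called lower. Of all genes, 0.722 percent were called in either direction in this comparison. The median difference of the list was 0.03, against 0.00 over all genes. Among the 26 measured genes of the list that are not members, the ranges of the 2 groups did not overlap for 3 that were higher (Mtap, Eif5a2 and Myc) and 1 that was lower (Slc3a2), and ranges did not overlap for 3.31 percent of all genes. Leaving Odc1 aside, 1 gene of the list was called between chronic and wild-type arrays, Myc, which was higher (0.456 percent of all genes were called). Between exponential and wild-type arrays 0 of the 31 were called, against 0.416 percent of all genes. In that comparison Myc passed without exponential replicate 4 and Mtap without exponential replicate 1 (adjusted p = 0.0324 by limma).

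Mtap encodes methylthioadenosine phosphorylase, which salvages the by-product released when spermidine and spermine are made. It read 3.15, 3.58, 3.57, 3.63 and 3.67 in the exponential arrays, 4.06, 3.41 and 3.54 in the chronic arrays, and 2.73, 3.04 and 2.76 in the wild-type arrays. Every leukemia array lay above every wild-type array, and the difference was 0.73 over the 8 leukemia arrays (SE 0.15, adjusted p = 0.0482 by limma). The call sat at the threshold. It was lost without exponential replicate 2, 3 or 5, chronic replicate 2 or 3, or any 1 wild-type array (adjusted p up to 0.258), and held without exponential replicate 1 or 4 or chronic replicate 1.

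Myc read 8.47, 8.40, 9.42, 7.32 and 8.48 in the exponential arrays, 8.39, 8.45 and 7.88 in the chronic arrays, and 6.81, 6.93 and 7.10 in the wild-type arrays. All leukemia arrays were above wild type, with exponential replicate 4 the closest. The chronic difference was 1.29 (SE 0.18, adjusted p = 0.0379 by limma), and the call was lost when chronic replicate 1 or 2 or any 1 wild-type array was left out (adjusted p between 0.0958 and 0.137). The exponential difference was 1.47 (SE 0.37, adjusted p = 0.163), or 1.75 without exponential replicate 4 (adjusted p = 0.00994). Myc was high and Odc1 low in the same arrays relative to wild type, and exponential replicate 4 had the lowest leukemia value of both.

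Slc3a2, the heavy chain of several amino acid transporters that has also been linked to polyamine export, had every leukemia value below wild type. It read 5.85, 5.52, 5.98, 6.10 and 6.63 in the exponential arrays, 6.19, 5.41 and 5.90 in the chronic arrays, and 6.83, 6.73 and 7.23 in the wild-type arrays. The nearest was exponential replicate 5, and the difference of -0.99 (SE 0.22) missed the threshold (adjusted p = 0.0634 by limma). It passed without exponential replicate 4 (adjusted p = 0.0494) or exponential replicate 5 (adjusted p = 0.0218).

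Eif5a2 encodes a paralog of the translation factor that is modified with hypusine, an amino acid built from spermidine. It read 3.33, 2.87, 3.23, 2.94 and 3.34 in the exponential arrays, 3.07, 3.16 and 3.38 in the chronic arrays, and 2.71, 2.71 and 2.62 in the wild-type arrays. The groups did not overlap, and the difference of 0.49 (SE 0.12) was not called (adjusted p = 0.0956 by limma). Eif5a itself differed by 0.76 (SE 0.30, adjusted p = 0.367), with overlapping groups, in the brighter of its rows. The enzymes that form hypusine, Dhps and Dohh, differed by 0.02 each.

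The remaining roles gave differences that were not called. Over the 8 leukemia arrays against wild type, the arginine transporter Slc7a1 differed by -0.39 (adjusted p = 0.447 by limma) and the ornithine aminotransferase Oat by -0.23. The antizymes Oaz2 and Oaz3 differed by -0.08 and -0.11, and the second antizyme inhibitor Azin2 by -0.21. By phase, Oaz2 differed from wild type by 0.115 in exponential and -0.39 in chronic arrays. Slc7a1 differed by -0.25 and -0.62 in the same order, and none of these was called. In breakdown, the diamine oxidase Aoc1 differed by -0.09 and the Sat1 paralog Sat2 by -0.02. The transporter Atp13a3 differed by 0.28 and the methionine adenosyltransferase subunit Mat2b by 0.22.

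**Figure D4:**
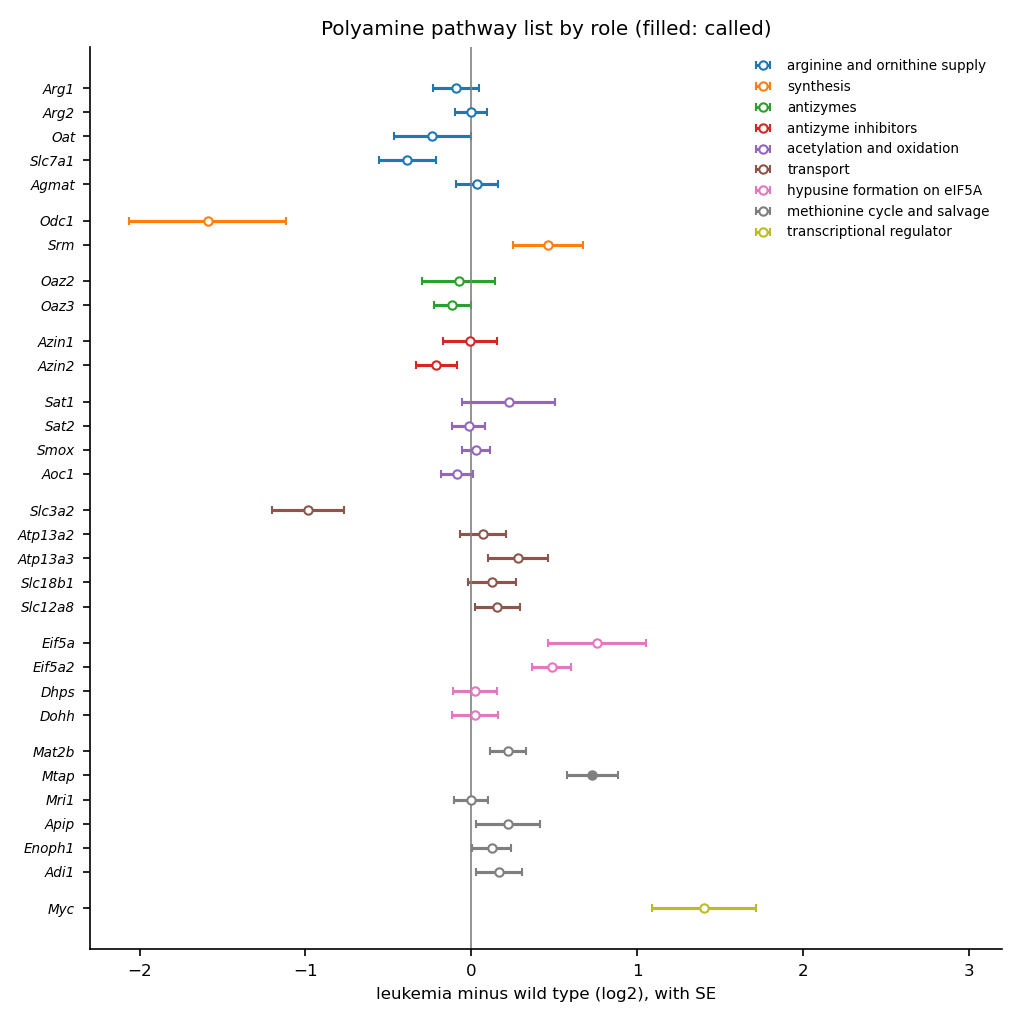
Difference between all 8 leukemia arrays and the 3 wild-type arrays (horizontal axis, log2, with SE) for the 31 measured genes of the polyamine list, grouped by role. Filled points passed the threshold, which only Mtap (0.73) did, and most other genes lie close to 0. Of all genes, 0.722 percent passed it.

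Likeness was searched among 9409 genes with a mean above the median of all genes. Clone names, receptor and immunoglobulin segments and small RNAs were left out. The genes whose pattern was most like Odc1 were found by Pearson r over the 11 arrays. These were Tnfaip3 (r = 0.942, Spearman rho = 0.936), an inhibitor of NF-kB signaling, Ctla4 (r = 0.930, rho = 0.982), an inhibitory T-cell receptor, the transcriptional repressor Tgif1 (r = 0.917, rho = 0.945), the antiproliferative gene Btg1 (r = 0.915, rho = 0.927) and the myosin gene Myo3b (r = 0.911, rho = 0.927). The likeness of Tnfaip3 and Ctla4 was also present within groups, with r of 0.901 and 0.934 for deviations from the group means. Arrays share their cell makeup, Ctla4 is also 1 of the CD4 helper and regulatory markers, and these genes were picked as the highest of many, so no test is given.

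Ctla4 shows the pattern in its values. It read 7.57, 4.07, 6.28, 3.85 and 6.87 in the exponential arrays, 6.29, 4.77 and 6.13 in the chronic arrays, and 10.17, 10.37 and 9.62 in the wild-type arrays. As with Odc1, exponential replicates 2 and 4 were the lowest arrays. The opposite pattern was strongest for the DNA ligase Lig3 (r = -0.928), the spindle gene Haus1 (r = -0.923) and the beta-arrestin Arrb2 (r = -0.923). Lig3 read only 2.20 to 2.80, near the median of all rows (2.30), so whether it stood above background was not established.

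**Figure D5:**
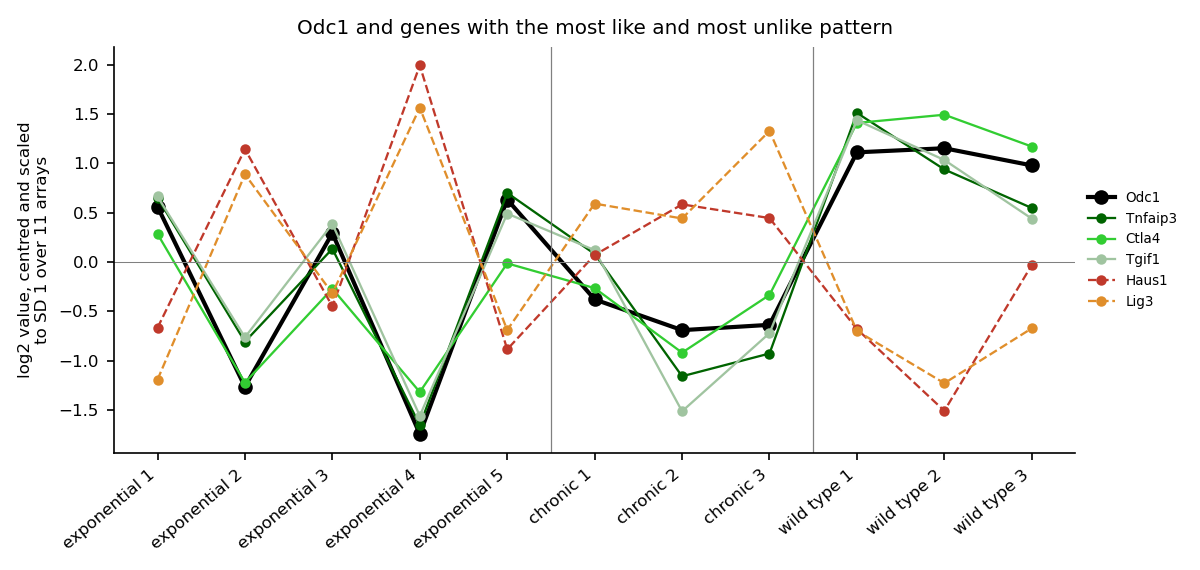
Log2 values of Odc1 and 5 genes, centred and scaled to an SD of 1 over the 11 arrays (vertical axis), by array. Solid lines are Odc1 and genes with a like pattern, dashed lines Haus1 and Lig3, which run the other way and peak in exponential replicate 4.

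For the other members the most like genes had r of 0.951 for Srm (the calcineurin catalytic subunit Ppp3cb), 0.910 for Azin1 (the Mediator subunit Med30), 0.930 for Sat1 (Ttpal) and 0.872 for Smox (Ccdc91). The Spearman rho of these pairs was 0.936, 0.936, 0.936 and 0.764 in the same order. Each gene was picked as the highest of 9409 over 11 arrays, so no test is given. Ttpal read 2.07 to 2.80 and Ccdc91 2.03 to 3.15, near the median of all rows (2.30), as did Smox. No gene was the most like for more than 1 member.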

How the data were processed

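The series table holds 34760 rows of Mouse Gene 1.0 ST arrays in 11 columns. Per the deposited table and the methods, the authors corrected background and normalized with RMA and quantile normalization, giving log2 values. The log base was judged from the range (0.775 to 13.5), and all columns share 1 distribution, so a shift common to all genes would not show. Tool versions of that step are not given in the sources used here. A row was named from the platform annotation where it had 1 symbol (21640 rows). The highest-mean row per gene was kept (19937 genes, 954 of them with several rows).

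Each comparison was fitted on its own groups with limma 3.58.1 (lmFit, eBayes) in R 4.3.3, with Benjamini-Hochberg adjustment over all genes. A gene was called at adjusted p under 0.05 and a fold of at least 1.5. Precision is limited by how many arrays there were. The fits were tested on simulated data. Members, gene lists and tests were chosen with earlier results of these data known. Genes outside the members were named where called, or as up to 2 per role with the smallest p in leukemia against wild type, plus Myc and the highest and lowest correlates. Sat2, Dhps and Dohh were added after their values were seen. Alternatives were 1 fit over all groups, a replicate block, a filter on dim rows, cyclic loess, variance trend, array weights, all rows, mean of rows, leaving out single arrays and dropping the fold threshold. The second Odc1 row was added after seeing the data. The 8 list genes without a row of their own (Amd1, Amd2, Sms, Oaz1, Paox, Slc22a3, Mat2a and Ahcy) were not analysed here.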

Additional observations from a re-analysis of the deposited data

How the results depend on the processing

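Of the 4 members not chosen by value, 0 were called in any comparison under any alternative. Odc1 kept its sign in all. Against wild type this could hardly have come out otherwise, because Odc1 was chosen for its fall in these same arrays, so it adds no support. All 5 measured members passed the filter on the dimmest 30 percent of rows. Against the 83 genes called between exponential and wild-type arrays, testing all rows called 45, and leaving out 1 array called 16 (without wild-type replicate 2) to 221 (without exponential replicate 4). Against the 91 called between chronic and wild-type arrays, the variance trend called 154, all rows called 0 (2225 genes had an unadjusted p under 0.05 in the fit over genes by limma), and leaving out 1 array called 8 (without wild-type replicate 1) to 108. Between the phases 0 to 2 were called, 2 without chronic replicate 1. Between leukemia and wild-type arrays 144 were called, and 50 (without wild-type replicate 1) to 273 (without exponential replicate 4) with 1 array left out.

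Replicate numbers are shared between groups, and no label pairs the arrays, so the numbers were not taken as pairs. The deviations of same-numbered arrays correlated between -0.037 and 0.18. Of 6 arrays, 2 to 4 correlated best with their own number, with 4 between chronic and wild-type arrays. So few arrays cannot show whether same-numbered arrays shared a batch. With the replicate block, 139 genes were called between exponential and wild-type arrays and 264 between leukemia and wild-type arrays.

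Signs that turned belonged to differences near 0, none of them called. With array weights these were Smox between exponential and wild-type arrays (-0.0277), Azin1 (-0.0423) and Sat1 (3e-04) between chronic and wild-type arrays, and Azin1 between exponential and chronic arrays (0.0344). With cyclic loess Azin1 between chronic and wild-type arrays was -0.0146. Leaving out 1 array gave, against wild type, -0.144 to 0.0285 for Azin1 and -0.0626 to 0.0804 for Smox in the exponential phase, -0.1355 to 0.2284 for Azin1 and -0.2971 to 0.1276 for Sat1 in the chronic phase, and -0.0944 to 0.0489 for Azin1 and -0.039 to 0.104 for Smox over all leukemia arrays. Between the phases Azin1 lay between -0.2657 and 0.0983. The Mtap call was lost in 5 of 9 other settings (adjusted p up to 0.135), and the chronic Myc call in 3 of 9 (adjusted p up to 0.209). Calls were also gained. With the replicate block these were Slc3a2 (adjusted p = 0.0213) and Myc (adjusted p = 0.0182) between exponential and wild-type arrays, and Slc3a2 (adjusted p = 0.00591) and Myc (adjusted p = 0.0332) between leukemia and wild-type arrays. In the last comparison Slc3a2 was also called with the variance trend (adjusted p = 0.0472) and Myc with array weights (adjusted p = 0.0356) or without exponential replicate 4 (adjusted p = 0.00843). The cause was not tested.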
